A study of Mus musculus with 2 samples.

Results

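The genes described here are the D-type cyclins, the kinases they activate and the inhibitors of those kinases, which together set whether a cell in G1 commits to DNA replication. The rule that picks them is a list of symbols: Ccnd1, Ccnd2, Ccnd3, Cdk4, Cdk6, Cdkn1a, Cdkn1b, Cdkn2a, Cdkn2b and Cdkn2c. All 10 had a row in the deposited count table, out of 19674 gene rows, and all 10 reached a summed count of 50, as did 13534 genes in all, which are called measured here. Bulk RNA sequencing was done on the mouse skin fibroblast line MDFB, labelled as wild type. Cells were given vehicle in 1 library and the cytokine IL-17A in the other. Both libraries were treated here as 1 batch, and the labels give no dose, no length of treatment and no passage. With 1 library per group there is no replicate check and no test: ratios describe these 2 libraries, and every interval below is a 95% interval for counting error only.

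Cyclins D1, D2 and D3 bind Cdk4 and Cdk6 and are made in response to growth factors. The active kinases phosphorylate the retinoblastoma protein, which then releases E2F transcription factors, and E2F turns on the genes of DNA replication. The INK4 inhibitors bind Cdk4 and Cdk6 themselves, whereas the Cip/Kip inhibitors p21 and p27 bind cyclin-kinase complexes, block Cdk2, and also help cyclin D to assemble with its kinase. In fibroblasts the pathway is known for linking serum growth factors to division, and the INK4 and p21 genes for the arrest of damaged or ageing cells.

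Among the 10 genes Ccnd1 stood apart: its transcript in the IL-17A library was at 28.6% of its vehicle level, while the other 9 lay within 2-fold. Ccnd2 and the INK4 members Cdkn2a, Cdkn2b and Cdkn2c were lower by 1.45-fold to 1.90-fold. Cdk4, Cdkn1a and Cdkn1b differed by 1.11-fold or less. No gene of the 10 was higher. By the size rule used here, a ratio of 2-fold or more, 1 of the 10 was lower, against 3.69% of measured genes, and 0 were higher, against 5.19%. At a limit of 1.5-fold, 4 of the 10 were lower (Ccnd1, Ccnd2, Cdkn2a and Cdkn2c), against 8.25%. All 10 had a log2 ratio below 0, as did 49.7% of measured genes, and the median was -0.45 beside 0.00 over all measured genes. The counting interval lay wholly below 0 for 9 of the 10, beside 26.5% of measured genes, though such intervals are narrower for genes with many counts.

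**Figure D1:**
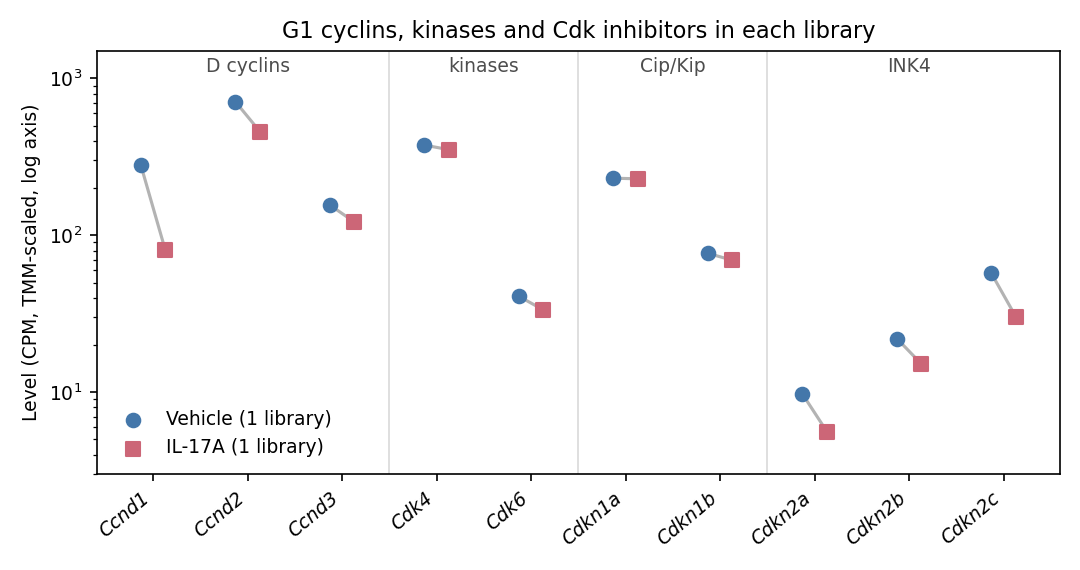
Level of each gene in CPM on a log axis, with the vehicle library as circles and the IL-17A library as squares, 1 library each, joined by a grey line. Ccnd1 shows the widest gap, from 281 to 80.3 CPM, and the points of Cdkn1a lie at nearly the same height, 231 and 229.

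The D cyclins are taken first. Ccnd1, which encodes cyclin D1, was counted 7029 times in the vehicle library and 1848 times in the IL-17A library. In CPM, counts relative to the scaled library size, this was 281 and 80.3. The ratio was 3.50-fold lower (interval 3.32 to 3.69), or -1.81 on the log2 scale, and 164 of the measured genes (1.21%) had a ratio as low. Ccnd1 lies on chromosome 7 of GRCm38, the assembly also called mm10, at 144929931 to 144939925 on the minus strand.

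The exons of Ccnd1 share 1100 bases with those of LTO1, a neighbouring gene read from the opposite strand. LTO1 was nearly level, at 535 counts (vehicle) and 541 (IL-17A). The libraries were made with a stranded kit, but the strand setting of the counting is not given in the sources used here, so reads in the shared stretch cannot be assigned with certainty. The nearest measured protein-coding genes that do not overlap Ccnd1, chosen after its value was seen, were Fadd, 347-kb away, and Tpcn2, 247-kb away, with log2 ratios of -0.00 and 0.02. The low ratio of Ccnd1 was thus not seen in the genes beside it.

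Ccnd2, which encodes cyclin D2, was the D cyclin with the most counts in both libraries, 17798 and 10555 in the order vehicle and IL-17A, which is kept below. Its level was 712 and 459 CPM, 1.55-fold lower (interval 1.51 to 1.59). It lies on chromosome 6 at 127125162 to 127152193, where 368 exon bases are shared with the antisense gene 9330179D12Rik (19 and 13 counts). Another antisense gene, Gm43126, shares 372 exon bases with Ccnd2 and has no row of counts. Ccnd3, which encodes cyclin D3, had 3902 and 2797 counts and was 1.28-fold lower (interval 1.22 to 1.35). It lies on chromosome 17 at 47505051 to 47599691, where 361 exon bases are shared with Bysl on the opposite strand, a gene with 943 and 760 counts. Its pseudogene Ccnd3-ps had 25 and 21 counts, and reads common to both copies make the Ccnd3 counts slightly uncertain. The 3 genes were thus ordered Ccnd1, Ccnd2, Ccnd3 by how far they were lower, and their counting intervals did not overlap. The distance to Ccnd1 exceeded that between Ccnd2 and Ccnd3.

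The summed counts of the 3 D cyclins were 28729 and 15200, 1.74-fold lower (interval 1.71 to 1.77). A share within a library does not depend on how libraries are scaled. Ccnd1 made up 24.5% of the D cyclin counts with vehicle (exact Clopper-Pearson interval 24.0 to 25.0) and 12.2% with IL-17A (interval 11.6 to 12.7). Ccnd2 took 62.0% (interval 61.4 to 62.5) and 69.4% (interval 68.7 to 70.2), and Ccnd3 took 13.6% (interval 13.2 to 14.0) and 18.4% (interval 17.8 to 19.0). The IL-17A library therefore held a D cyclin pool with a smaller part of Ccnd1 and larger parts of both others.

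Longer transcripts give more reads, so levels were also compared per kilobase of exon, using all GENCODE M21 exons of a gene. On that scale Ccnd1 was at 59.7 CPM per kb with vehicle and 17.1 with IL-17A, and Ccnd2 at 75.6 and 48.8. Ccnd3 was at 17.8 and 13.9. Exon lengths were 4709 bases over 3 transcripts for Ccnd1, 9409 over 8 for Ccnd2 and 8775 over 21 for Ccnd3. A value per kb is lowered if the longest forms are little used, so the order and shares per kb depend on the forms present. The share of Ccnd1 in the D cyclin signal per kb was 39.0% with vehicle and 21.4% with IL-17A. Per kb, Ccnd1 was 3.36 times Ccnd3 with vehicle and 1.23 times with IL-17A, and 0.789 and 0.350 times Ccnd2. The order Ccnd2, Ccnd1, Ccnd3 was the same in both libraries on this scale, while by counts Ccnd1 lay above Ccnd3 with vehicle and below it with IL-17A.

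**Figure D2:**
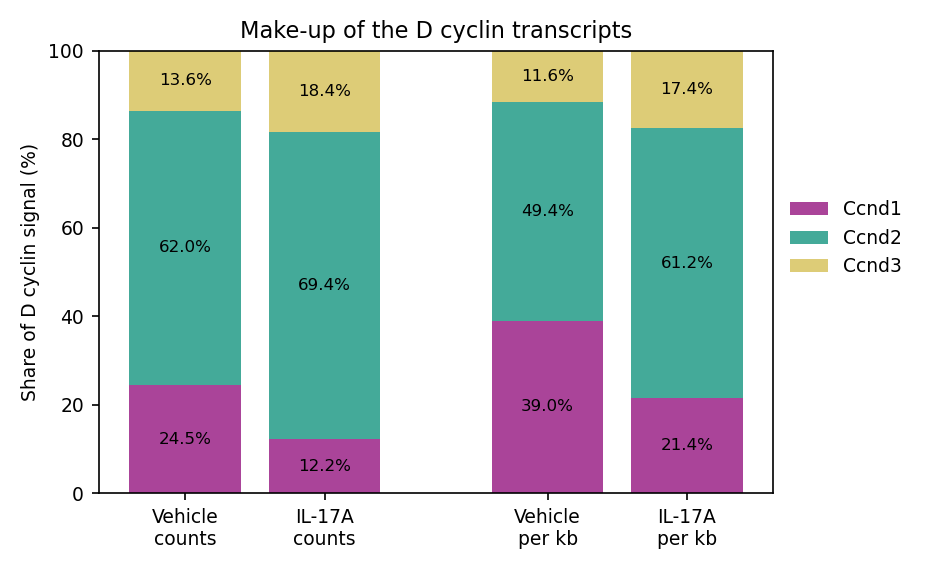
Share of each D cyclin in the summed D cyclin signal, in percent, for the vehicle and the IL-17A library (1 each), by raw counts in the left pair of bars and by counts per kilobase of exon in the right pair. The part taken by Ccnd1 is smaller with IL-17A on both scales, 24.5% against 12.2% of counts and 39.0% against 21.4% per kb.

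The kinases differed little. Cdk4 had 9398 and 8087 counts, 376 and 351 CPM, a ratio of 1.07-fold lower (interval 1.04 to 1.10). Cdk6 had 1022 and 770 counts, 40.9 and 33.5 CPM, and was 1.22-fold lower (interval 1.11 to 1.34). Cdk4 made up 90.2% of the counts of the pair with vehicle (interval 89.6 to 90.8) and 91.3% with IL-17A (interval 90.7 to 91.9). These intervals overlapped slightly, and the make-up of the kinase pair differed far less than that of the D cyclins.

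Per kb, Cdk4 stood at 116 CPM with vehicle and 108 with IL-17A, and Cdk6 at 2.92 and 2.39, so these fibroblasts carried mainly Cdk4 transcript on either scale. The exon length of Cdk6, 13989 bases over all its transcripts against 3249 for Cdk4, lowers its value per kb if the longest forms are little used. The ratio of Ccnd1 to Cdk4 counts was 0.748 with vehicle (interval 0.725 to 0.771) and 0.229 with IL-17A (interval 0.217 to 0.240), a comparison that no scaling of the libraries can alter. Cdk4 lies on chromosome 10 at 127063534 to 127067920, with 641 exon bases shared with Tspan31 on the opposite strand (2598 and 2747 counts). Cdk6 lies on chromosome 5 at 3341485 to 3531008. It shares 368 exon bases with the antisense gene Gm17590, which has no row of counts.

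Of the 10 genes, 8 had at least 1 promoter entry in the RefSeq table for GRCm38.p6, and Ccnd1 and Ccnd2 were the other 2. The promoter of Cdk4 is shown because Cdk4 is the kinase that these cells mainly express and its promoter carries a repeated motif. The sequence is the plus strand of chr10:127063285-127063533, with capitals on CACGTG, the E-box bound by Myc and related factors, which reads the same on both strands.
Cdk4: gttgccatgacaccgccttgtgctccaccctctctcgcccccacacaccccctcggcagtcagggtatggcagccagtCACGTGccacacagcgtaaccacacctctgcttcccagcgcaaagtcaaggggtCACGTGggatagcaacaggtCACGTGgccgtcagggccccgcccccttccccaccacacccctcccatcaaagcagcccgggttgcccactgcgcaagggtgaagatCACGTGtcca
This window holds 4 copies. At least 1 copy is found in 6.02% of the 32851 promoter entries, over the 250 bases before the start, and 4 or more in 7 entries (0.0213%). Myc itself, chosen after its value was seen, had 1482 and 1400 counts and a log2 ratio of 0.04, and Cdk4 stood at -0.10.

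The 3 INK4 members were all below their vehicle level, and 0 of them passed 2-fold. Cdkn2c, which encodes p18, had 1430 and 694 counts, 57.2 and 30.2 CPM. It was 1.90-fold lower (interval 1.73 to 2.08), and its interval reached the 2-fold limit. Cdkn2a, the locus of both p16 and the p53 activator Arf, had 244 and 129 counts and was 1.74-fold lower (interval 1.40 to 2.17). Cdkn2b, which encodes p15, had 550 and 348 counts and was 1.45-fold lower (interval 1.27 to 1.67).

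The 3 counting intervals of the INK4 members all lay below 0 on the log2 scale. Those of Cdkn2a and Cdkn2b overlapped, as did those of Cdkn2a and Cdkn2c, and those of Cdkn2b and Cdkn2c did not. The remaining INK4 gene, Cdkn2d, which encodes p19Ink4d and is no member of the 10, was nearly level at 539 and 466 counts, a log2 ratio of -0.09 (interval -0.27 to 0.09). It was named after its value was seen. Summed counts of the 3 members were 2224 and 1171, 1.75-fold lower (interval 1.63 to 1.88). With Cdkn2d they were 2763 and 1637, 1.55-fold lower (interval 1.46 to 1.65). Of the counts of the 3 members, Cdkn2c took 64.3% (interval 62.3 to 66.3) with vehicle and 59.3% (interval 56.4 to 62.1) with IL-17A.

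Cdkn2a and Cdkn2b are neighbours on chromosome 4, at 89274471 to 89294653 and 89306299 to 89311039, both on the minus strand and 11.6-kb apart. Cdkn2c is on the same chromosome at 109660876 to 109667189. The next measured protein-coding gene beyond Cdkn2a, Mtap, had a log2 ratio of -0.12 from 1857 and 1573 counts, chosen as an example after its value was seen. The nearest measured neighbours of Cdkn2c, likewise chosen afterwards, went either way: Faf1, 9.40-kb off, was at -0.40 from 1696 and 1184 counts, and Rnf11, 176-kb off on the other side, was at 0.22 from 3176 and 3399.

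Promoters of this neighbouring pair are shown because both genes were lower and because the counts of Cdkn2a pool transcripts from separate starts. All are on the minus strand and written from 5′ to 3′, ending at the start site or before the first annotated transcribed base. The entry of Cdkn2a farther upstream in the gene is chr4:89294654-89294869, the one nearer its 3′ end is chr4:89282193-89282442, and that of Cdkn2b is chr4:89311040-89311282. Capitals mark TGACGTCA, the cyclic AMP response element bound by Creb and Atf factors.
Cdkn2a upstream start: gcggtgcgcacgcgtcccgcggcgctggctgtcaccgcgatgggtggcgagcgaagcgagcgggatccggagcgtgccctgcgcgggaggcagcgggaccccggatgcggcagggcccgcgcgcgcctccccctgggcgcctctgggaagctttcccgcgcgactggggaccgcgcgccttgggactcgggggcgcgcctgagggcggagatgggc
Cdkn2a downstream start: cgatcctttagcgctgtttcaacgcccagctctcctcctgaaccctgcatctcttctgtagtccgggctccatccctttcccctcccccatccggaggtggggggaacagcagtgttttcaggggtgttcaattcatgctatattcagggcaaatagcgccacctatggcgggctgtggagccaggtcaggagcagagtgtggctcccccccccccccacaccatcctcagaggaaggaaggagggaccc
Cdkn2b: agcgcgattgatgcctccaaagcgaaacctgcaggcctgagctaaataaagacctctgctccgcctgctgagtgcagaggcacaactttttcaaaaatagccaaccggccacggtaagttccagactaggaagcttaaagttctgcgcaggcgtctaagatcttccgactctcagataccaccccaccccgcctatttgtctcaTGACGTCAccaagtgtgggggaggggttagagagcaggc
The element occurs in Cdkn2b, from 46 to 39 bases before the RefSeq start, and is found in 1.55% of the promoter entries. The 250-base windows of the 8 genes were also searched on both strands for TGANTCA (AP-1, in 6.75% of entries), GGANTTTCC (NF-kB, 1.07%), TTGCNNCAA (C/EBP, 1.74%) and TTTCGCGC or TTTGGCGC (E2F, 0.654% for either). None of these 4 motifs was in any of the 12 entries, which says only that these letters are not in these windows. GGGCGG, the GC box bound by Sp1, occurred in at least 1 entry of 6 of the 8 genes. It was in 32.7% of single entries, and the 2 values are not alike, since some genes have more than 1 entry. CACGTG also occurred once in Cdk6, CTTTGAT (TCF, 3.21% of entries) in Cdk4 and GTAAACA (FOXO, 3.17%) in Ccnd3. The motifs shown in capitals overlapped no other motif searched. The deposited counts are per gene, so transcripts from the separate starts of Cdkn2a cannot be told apart.

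The Cip/Kip inhibitors were nearly level. Cdkn1a, which encodes p21 and is a classic target of p53, had 5783 and 5272 counts, 231 and 229 CPM. Its log2 ratio was -0.01 (interval -0.07 to 0.04), the member nearest to 0. Cdkn1b, which encodes p27, had 1920 and 1596 counts, 76.8 and 69.4 CPM, and stood at -0.15 (interval -0.24 to -0.05). Cdkn1a lies on chromosome 17 at 29090976 to 29100727 and Cdkn1b on chromosome 6 at 134920401 to 134925513. Cdkn1a shares 273 exon bases with AC167363.2 on the opposite strand, which has no row of counts.

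Since these inhibitors stayed close to their vehicle level while Ccnd1 was lower, their counts relative to Ccnd1 differed between the libraries. There were 0.823 Cdkn1a counts per Ccnd1 count with vehicle (interval 0.794 to 0.852) and 2.85 with IL-17A (interval 2.71 to 3.01). For Cdkn1b the values were 0.273 (interval 0.260 to 0.287) and 0.864 (interval 0.807 to 0.924). Relative to all 3 D cyclins the difference was smaller: their summed counts were 1.74-fold lower, and those of Cdkn1a and Cdkn1b 1.03-fold lower. The summed INK4 members were 1.75-fold lower, so their proportion to the D cyclins was nearly the same in both libraries. The third gene of the Cip/Kip family, Cdkn1c, is an imprinted gene that encodes p57 and is no member of the 10. It was lower by a ratio near that of Ccnd1: 1772 and 443 counts, 3.68-fold lower (interval 3.31 to 4.09).

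**Figure D3:**
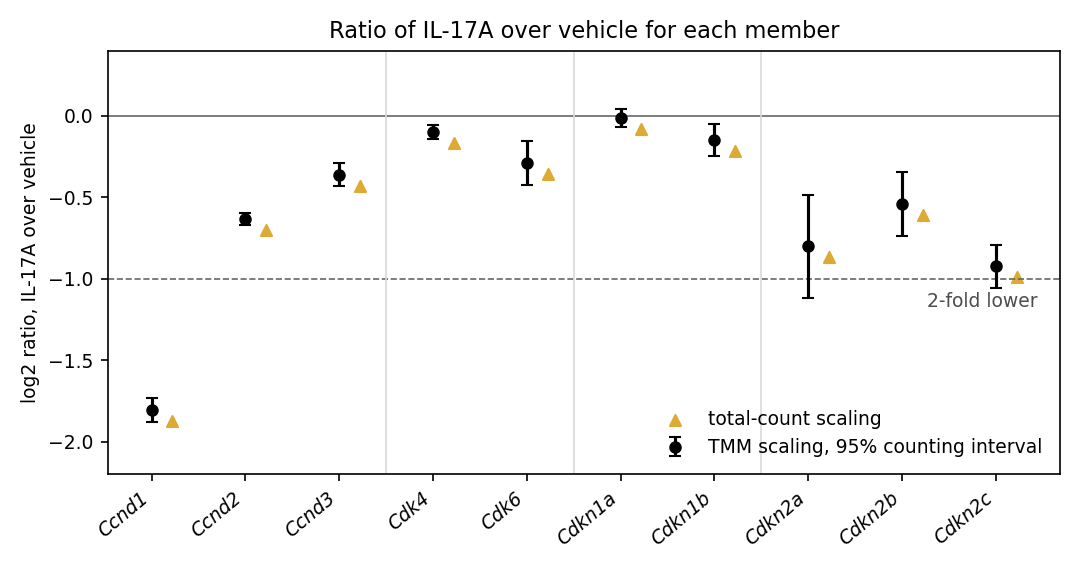
The log2 ratio of IL-17A over vehicle for each gene, with dots and bars for TMM scaling and its 95% counting interval and triangles for scaling by total counts. Ccnd1 lies at -1.81, below the dashed line that marks 2-fold, the INK4 members lie between -0.92 and -0.54, and Cdkn1a is at -0.01.

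By level per kb of all annotated exons, with the limit given above for little-used long forms, the members kept much of one order. With vehicle it ran from Cdk4 at 116 CPM per kb through Ccnd2 at 75.6, Cdkn1a at 65.1 and Ccnd1 at 59.7 to a middle set of Cdkn2c at 21.3, Ccnd3 at 17.8, Cdkn1b at 16.9 and Cdkn2b at 15.8. Cdkn2a at 8.32 and Cdk6 at 2.92 came last. The counting intervals of Ccnd3 and Cdkn1b overlapped, as did those of Cdkn1b and Cdkn2b, and those of the other neighbours did not. With IL-17A, Cdkn1a at 64.5 stood above Ccnd2 at 48.8, and Ccnd1 at 17.1 was next to Cdkn1b at 15.2. Cdkn2c at 11.2 and Cdkn2b at 10.9 then overlapped in their intervals.

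The genes downstream of the D cyclins were read from lists of the wider pathway. Of 18 S-phase genes controlled by E2F, 0 were past 2-fold in either direction and all 18 had a log2 ratio below 0, with a median of -0.54, where 49.7% of measured genes were below 0 and 3.69% were past 2-fold lower. At 1.5-fold, 6 of the 18 were lower, against 8.25%. Tk1, the thymidine kinase, had the lowest ratio of these at -0.85, from 1188 to 606 counts, followed by Uhrf1, a reader of newly replicated DNA methylation, at -0.77. All 12 genes of G2 and mitosis were below 0, also with 0 past 2-fold and a median of -0.35. The proliferation marker Mki67 was at -0.71, from 5770 to 3237 counts, and the mitotic kinase gene Plk1 at -0.45. Their medians stand beside 0.00 over all measured genes.

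Next to these, the genes for cyclin E and A, Cdk2 and its activating enzymes had 6 of 8 below 0 and a median of -0.20. Ccne1, which encodes cyclin E1, was at -0.40 and Ccna2, which encodes cyclin A2, at -0.36. The pocket proteins and E2F factors had no common direction, with 7 of 13 below 0 and a median of -0.01. The lowest 2 of them were E2f7 at -0.61 and E2f8 at -0.58, the atypical E2F factors, which repress E2F targets. The retinoblastoma gene Rb1, chosen after its value was seen, was at 0.24 from 402 and 436 counts. None of these 21 genes passed 2-fold. Over all measured genes, 5.19% were higher by that limit, 3.69% were lower and 49.7% were below 0.

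**Figure D4:**
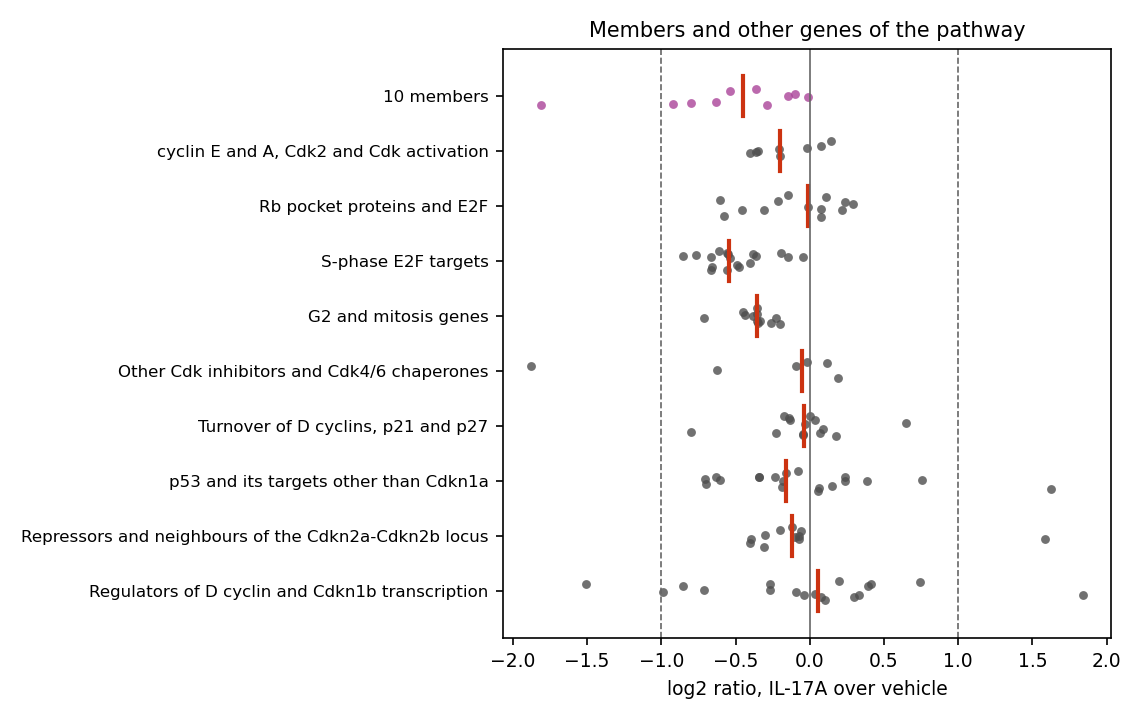
The log2 ratio of IL-17A over vehicle for the 10 members (top row) and the measured genes of 9 lists of the wider pathway, 1 dot per gene, with a red bar at each median and dashed lines at 2-fold. The S-phase and mitosis genes lie wholly below 0 and within 2-fold, and single genes such as Ccnd1 and Cdkn1c lie well outside their groups.

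Among genes known to act on the transcription of D cyclins and p27, 1 of 18 measured was at least 2-fold higher and 1 at least 2-fold lower, with a median of 0.06. These counts are near the shares over all measured genes, 5.19% and 3.69%, so the genes past the limit are given as single values. Mxd1, which encodes a repressor that competes with Myc for its partner Max, was 3.59-fold higher (interval 3.15 to 4.09), from 300 to 990 counts. Klf4, a Krüppel-like factor linked to growth arrest and to p21, was 2.85-fold lower (interval 2.66 to 3.05), from 3507 to 1134 counts. Id1, a helix-loop-helix inhibitor chosen after its value was seen, was at -0.99 from 499 and 231 counts, and past the limit under total-count scaling at -1.06. The beta-catenin gene Ctnnb1, likewise chosen afterwards, was at 0.10.

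Genes for the turnover of D cyclins, p21 and p27 had 0 of 14 past 2-fold and a median of -0.04. By that limit 5.19% of measured genes were higher and 3.69% lower. Dtl, which targets p21 for degradation during S phase, was at -0.80 from 836 and 441 counts, and Cul1, the scaffold of the SCF ubiquitin ligases, was at 0.65 from 2927 and 4219 counts. In the list of p53 and its targets other than Cdkn1a, 1 of 19 measured was at least 2-fold higher, 0 were lower and the median was -0.16. These counts are near the shares over all measured genes. The gene past the limit was Fas, a death receptor, 3.09-fold higher (interval 2.70 to 3.54). Trp53 itself, chosen after its value was seen, was at 0.15 from 3955 and 4036 counts.

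The next list held Polycomb genes and other regulators or neighbours of the Cdkn2a and Cdkn2b locus, not all of them repressors. Of its 12 genes, 11 were in the table and measured. Cbx7, a Polycomb protein known to repress this locus, was at least 2-fold higher, at 1.58 on the log2 scale (interval 1.22 to 1.96) from 86 to 237 counts, and the other 10 lay within 2-fold and below 0. Over all measured genes, 5.19% were higher by that limit and 49.7% were below 0, and Cbx7 is given as a single value. The list median was -0.12. Ezh2 and Bmi1, the best-known Polycomb genes of the list and chosen after their values were seen, were at -0.40 and -0.10. Among the other Cdk inhibitors and chaperones of Cdk4 and Cdk6, Cdkn1c was the 1 of 6 past 2-fold, and the list median was -0.05. The share of measured genes at least 2-fold lower was 3.69%.

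Facts of the libraries bear on all of these values. Total counts were 24427027 with vehicle and 23559416 with IL-17A. The culture carried fibroblast transcripts in both libraries, with all 10 fibroblast markers measured and summed levels of 56641 and 42674 CPM. Most of these sums came from Col1a1 (23623 and 15153 CPM), Col1a2 (16208 and 11793) and Col3a1 (9352 and 5289). Of the 10 markers 5 were above 0 and 5 below on the log2 scale. The 2 past 2-fold, Dcn at 2.62 and Twist2 at 1.15, were higher, against 5.19% of measured genes. Of 6 mural cell markers, 5 were measured and all 5 were at least 2-fold lower, against 3.69% of measured genes. Summed levels of the mural markers were 200 and 60.7 CPM. Of 8 leukocyte markers in the table, 7 were measured with 0 past 2-fold, and Cd3e was at 0 in both libraries. Their summed levels were 202 and 282 CPM, of which Lyz2 alone gave 153 and 227. Of the 7 measured, 5 were above 0 and 2 below on the log2 scale. Endothelial markers (6.40 and 6.08 CPM), keratinocyte markers (2.52 and 3.39 CPM, with Krt15 and Krt1 at 0) and melanocyte and Schwann markers (12.1 and 13.1 CPM, with Tyr at 0) were low in both. Of 6 endothelial markers, 3 were measured, and 1 of them, Tek, was at least 2-fold lower (49 and 18 counts), against 3.69% of measured genes. The other 2 measured were above 0 on the log2 scale. The part of the mural and leukocyte transcripts in the values above was not tested. In bulk RNA, fewer cells of a kind, such as dividing cells, and less of a transcript per cell cannot be told apart.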

How the data were processed

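Values are raw counts per gene symbol, deposited by the authors without normalization, 1 column per library. Per the submitters' processing notes, STAR, featureCounts and mm10 were used. Versions, annotation and strand setting: not given in the sources used here. Per the labels' protocols, libraries came from a stranded mRNA kit. Nothing says that the cultures were replicated. Library sizes were scaled with TMM over the whole table (edgeR 4.0.16, R 4.3.3), and each gene's scaled IL-17A count was divided by its scaled vehicle count, with a 95% interval from the exact binomial (Clopper-Pearson) limits. With 1 library per group, no residual degrees of freedom were left for a test. A gene counted as higher or lower at 2-fold or more with at least 50 summed counts. A count of 0 allows up to 3 counts, 0.123 CPM with vehicle and 0.127 with IL-17A. Reads carried no stated molecular identifiers, so these intervals and floors reflect counting error alone. Coordinates, exon lengths and overlaps came from GENCODE M21 (GRCm38), and promoters from RefSeq (GRCm38.p6). The calculation was tested on simulated data. The alternatives were total-count, upper-quartile and DESeq2 1.42.0 size-factor scaling, minimums of 10, 200 and 1 counts, limits of 1.5-fold and 3-fold, and a prior count of 2. The members and lists were chosen with earlier results of these data known. The text names all members, every gene of a pathway list past 2-fold or, where a list had none, the 2 with the highest absolute ratio. Other genes are said to be chosen after their values were seen.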

Additional observations from a re-analysis of the deposited data

How the results depend on the processing

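Under total-count, upper-quartile and DESeq2 size-factor scaling, all 10 members kept a log2 ratio below 0, Ccnd1 was the 1 member past 2-fold, 0 were higher, and their median lay between -0.52 and -0.45. Over these scalings and a prior count of 2, Ccnd1 ranged from -1.88 to -1.81, Cdkn2c from -0.99 to -0.92 and Cdkn1a from -0.08 to -0.01. A limit of 1.5-fold called 4 members lower, against 8.25% of measured genes. Over all genes, 702 higher and 500 lower became 1090 and 955 with a minimum of 10 counts, 1239 and 1115 with none, and 1364 and 1117 with a limit of 1.5-fold. A limit of 3-fold gave 340 and 219, and a minimum of 200 left 275 lower. The minimums change which genes are admitted, and the fold limits change which of the same measured genes are called. Shares of the D cyclins per kb of exon were 39.0%, 49.4% and 11.6% for Ccnd1, Ccnd2 and Ccnd3 with vehicle and 21.4%, 61.2% and 17.4% with IL-17A, since exon lengths differ. No paired analysis was possible because each group held 1 library, and none could be left out for the same reason. Depth limited the order of Cdkn2a among the INK4 members.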
